A study of Mus musculus with 17 samples.

Results

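The genes described here are 34 genes of glycolysis and of the response to low oxygen, taken as a named list from all 55335 genes counted in 17 bulk RNA-seq libraries of mouse bone stromal cells. All 34 were found in the count tables, and all 34 passed the filter on low counts in each of the fits used below. By role the list held 3 transporters of glucose and lactate, 11 genes of upper glycolysis, 6 of lower glycolysis, 3 of the lactate and pyruvate branch, 4 HIF factors and hydroxylases, and 7 other HIF targets.

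The libraries came from osteoprogenitor cells (OPCs) and skeletal stem cells (SSCs) of mice with no mutant, 1 mutant or 2 mutant copies of the 1013 knock-in allele of Cxcr4, called WT, +/1013 and 1013/1013. This allele shortens the tail of the chemokine receptor CXCR4, as in WHIM syndrome, and as a germline allele it is not limited to the sorted cells. Both cell types were sorted from flushed and collagenase-digested long bones and hips of female littermates 8 to 12 weeks old. OPCs were gated as CD51+ cells without CD45, TER119, CD31 and Sca-1, with or without PDGFRα. SSCs carried Sca-1, CD51 and PDGFRα and lacked the other 3 markers. Each library was made from 3000 cells pooled from 3 mice, so a replicate is a pool, not an animal. There were 3 libraries in each group except SSC 1013/1013, which had 2. The labels name no other allele and no treatment, and no cell-type-specific driver.

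Glycolysis splits glucose into pyruvate. The upper steps spend ATP to make triose phosphates, the lower steps from GAPDH to pyruvate kinase return ATP and NADH, and lactate dehydrogenase regenerates NAD+ by turning pyruvate into lactate. HIF-1α and HIF-2α are transcription factors that prolyl hydroxylases mark for destruction when oxygen is present. When oxygen falls they accumulate and raise transcription of glucose transporters, most glycolytic enzymes, VEGF and genes of their own feedback such as Egln3. Skeletal cells are known for a high glycolytic flux, and the growth plate and parts of the marrow are poorly oxygenated.

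HIF dimers bind the letters ACGTG or GCGTG, and promoter sequence was read for that reason. Of the 34 genes, 32 had a promoter window in the RefSeq table for GRCm38.p6 (Ndrg1 and Epas1 were not matched), and 29 of these held ACGTG or GCGTG on either strand within 250 bases before a start site, which is 90.6%. Over all gene symbols in the table the share was 41.5% (11226 of 27025). The promoters of the 34 genes were also richer in G and C, with a median of 60.4% against 52.4% over all windows. Among windows with at least 60% G and C, 63.8% of 9178 windows of all genes and 23 of 24 windows of these genes held a match. A match describes letters only and is not a binding site. The stretches holding the matches in the first window listed for a gene are given for the 6 genes that differed between SSCs and OPCs in all 3 genotypes, for Slc2a1 (the glucose transporter GLUT1) and for Ldha (the main lactate dehydrogenase subunit). Each is written 5′ to 3′ on the strand of the gene, with the matching letters in capitals. CACGTG holds ACGTG on both strands and counts on each of them. Ldha has 1 further match in its second window (chr7:46846832-46847131, 59 bases before that start site), which is not shown.
Slc2a1, chr4:119108674-119108723, plus strand: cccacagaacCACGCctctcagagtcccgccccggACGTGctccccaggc
Pfkl, chr10:78009892-78009916, minus strand: ttgtagactgGCGTGcgctccgcct
Gapdh, chr6:125165803-125165837, minus strand: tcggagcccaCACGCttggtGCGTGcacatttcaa
Pgk1, chrX:106186940-106186983, plus strand: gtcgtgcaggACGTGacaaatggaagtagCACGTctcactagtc
Pgam1, chr19:41911686-41911797, plus strand: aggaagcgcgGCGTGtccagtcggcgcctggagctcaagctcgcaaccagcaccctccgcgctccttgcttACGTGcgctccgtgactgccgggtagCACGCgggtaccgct
Ldha, chr7:46845649-46845784, plus strand: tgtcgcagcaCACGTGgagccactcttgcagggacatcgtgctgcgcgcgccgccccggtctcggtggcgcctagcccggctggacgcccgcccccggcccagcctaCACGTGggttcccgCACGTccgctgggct
Egln3, chr12:54204089-54204113, minus strand: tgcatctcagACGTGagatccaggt
Adm, chr7:110627557-110627617, plus strand: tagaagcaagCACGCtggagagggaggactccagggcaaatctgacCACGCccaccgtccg

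The libraries held 64099849 to 92683497 counts in genes for OPCs and 44217695 to 50509592 for SSCs. With counts scaled to library size only (CPM), 3 counts stood for 0.0324 to 0.0468 and 0.0594 to 0.0678 CPM. The gene levels below are CPM with TMM scaling added, on which 3 counts stand for somewhat different values. The 34 genes took 0.31% to 0.51% of the counts in OPCs and 0.442% to 0.663% in SSCs. Ly6a, which encodes Sca-1, lay at 0.568 to 12.4 CPM in OPCs and 390.0 to 1444 CPM in SSCs, Pdgfra at 54.7 to 149 and 341 to 524 CPM, and the osteoblast gene Bglap at 496 to 2964 and 5.13 to 50.1 CPM. Col1a1 lay at 93959 to 290421 CPM in OPCs and 1003 to 10646 CPM in SSCs. The share of reads that fell on more than 1 gene was 1.87% to 2.62% in OPCs and 3.28% to 3.93% in SSCs. The number of genes detected was 21449 to 22599 in SSC WT and 15748 to 19227 in the mutant SSC libraries, so this number and genotype cannot be told apart in SSCs. A set of 3 libraries stood apart by 20 leukocyte markers, although CD45+ cells were gated out. Their summed level was 20708 CPM in OPC WT replicate 3, 14981 CPM in OPC 1013/1013 replicate 2 and 7658 CPM in SSC WT replicate 3, against 46 to 947 CPM in the other libraries. In the same units 12 chondrocyte markers reached 21416 to 122665 CPM in OPCs and 4468 to 32977 CPM in SSCs. Most of the SSC sum came from Comp and Chad, which overlapped between the cell types, at 3286 to 20924 and 1108 to 11672 CPM in SSCs. Col2a1 and Acan did not overlap, at 9569 to 69882 and 404 to 3574 CPM in OPCs and 3.5 to 3339 and 3.87 to 244 CPM in SSCs.

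The most abundant of the 34 transcripts were the same in both cell types when levels were compared per kilobase of exon. Ldha stood first, at a median of 315 CPM per kb in OPCs and 204 CPM per kb in SSCs, and Aldoa, the main aldolase, stood second, at 173 and 201 CPM per kb. Tpi1, Pkm and Eno1 followed them in OPCs, and Pkm, Tpi1 and Gapdh in SSCs. Gapdh was in place 19 in OPCs, at 8.47 CPM per kb, and in place 5 in SSCs, at 92.4 CPM per kb. Adm, which encodes the vasodilator adrenomedullin, moved from place 22 (6.42) to place 7 (35.8), and Hif1a from place 6 (31.2) to place 15 (13.8) on the same scale. Car9, a HIF-induced carbonic anhydrase, was last in both and had libraries at 0 counts in every group except SSC WT.

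**Figure D1:**
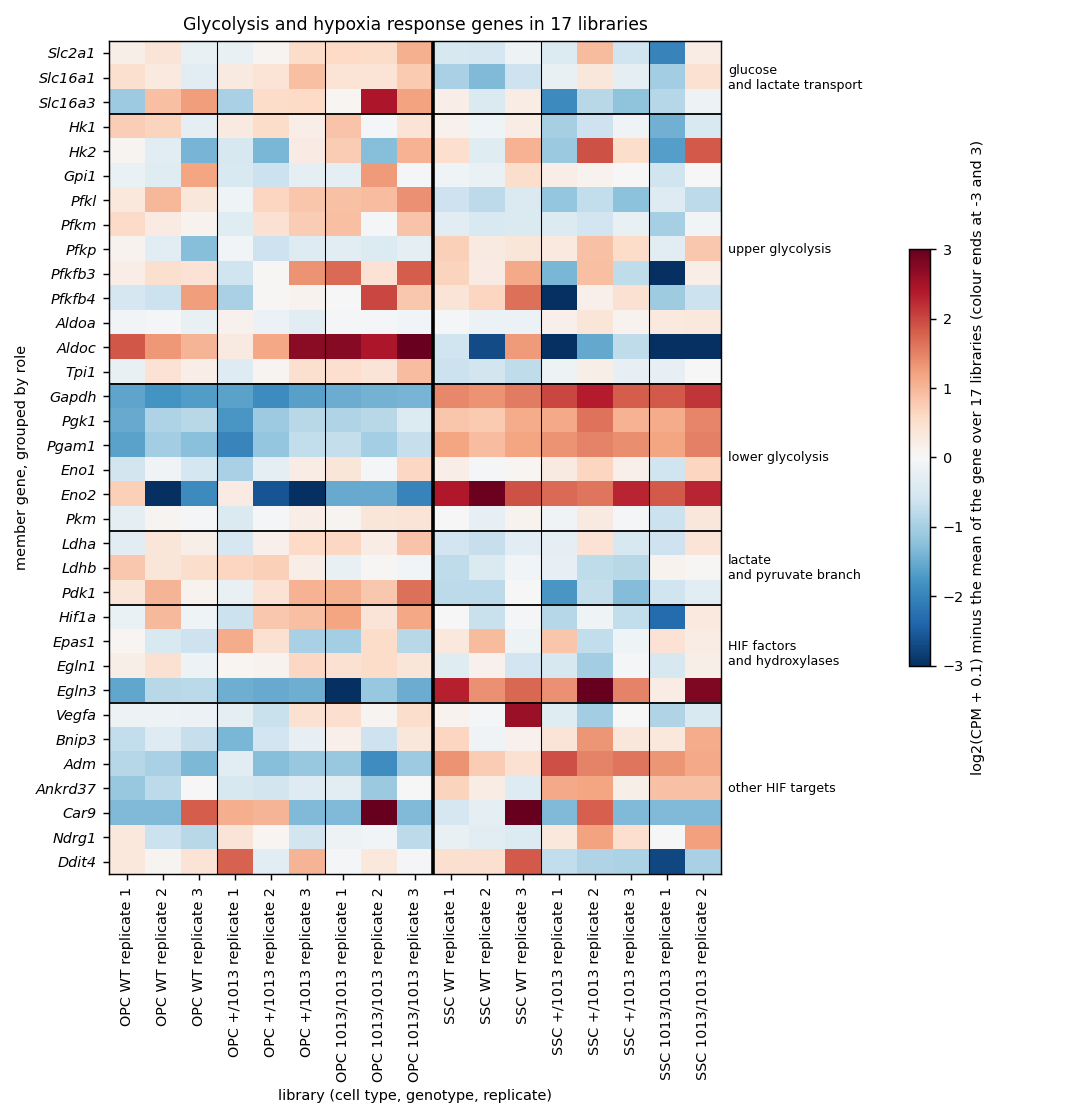
Levels of the 34 genes (vertical axis, by role) in the 17 libraries (horizontal axis, by group) as log2 CPM minus the gene's mean over all libraries, red above and blue below, with colours ending at -3 and 3. Gapdh, Pgk1, Pgam1, Egln3 and Adm lie above their mean in the 8 SSC libraries and below it in the 9 OPC libraries.

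The comparison of SSCs with OPCs within each genotype asked how glycolysis and the oxygen response differ between stem cells and committed progenitors. A gene was called when edgeR's quasi-likelihood test gave a Benjamini-Hochberg adjusted p under 0.05 over all 20238 genes tested and a change of at least 1.5-fold. In WT, 5 of 34 genes were called higher in SSCs, where 5.55% of all genes tested were, and 3 were called lower, where 5.86% were. In +/1013 the counts were 6 higher (6.44% of all genes) and 3 lower (6.02%). In 1013/1013 they were 5 higher (6.94%) and 4 lower (6.12%). Over the 34 genes the log2 fold change had a median of 0.18 in WT, -0.08 in +/1013 and -0.59 in 1013/1013, beside 0.17, 0 and -0.2 over all genes tested. Gapdh, Pgk1, Pgam1, Egln3 and Adm were called higher and Pfkl lower in all 3 genotypes, 2 genes were called in 2 genotypes, 4 in 1, and 22 in none. These 3 comparisons use different libraries but 1 fit. Depth, the share of ambiguous reads and cell type separated the same libraries and cannot be told apart, and in bulk samples a smaller share of expressing cells cannot be told apart from less RNA per cell.

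**Figure D2:**
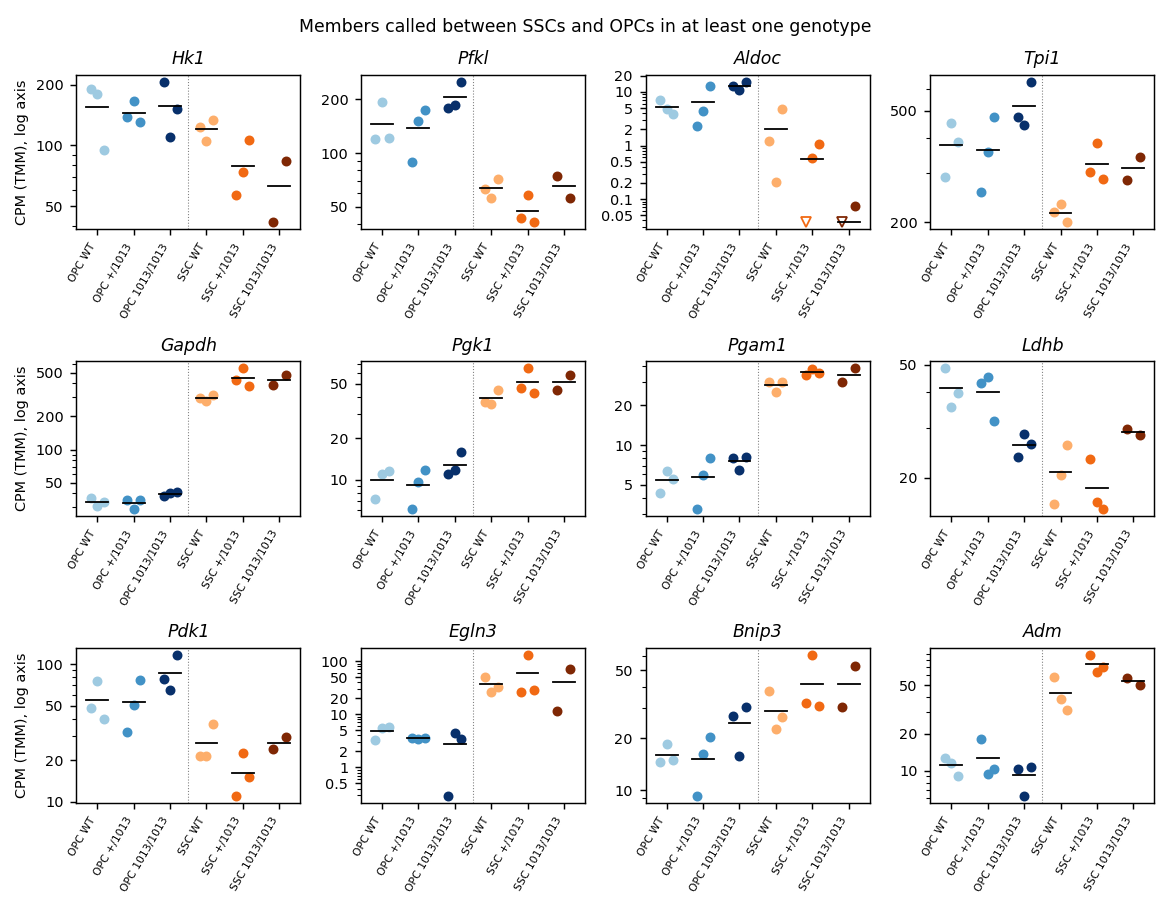
CPM in each library (vertical axis, log scale; 1 point per library) for the members called between SSCs and OPCs, by group along the horizontal axis, with bars at group means and open triangles for libraries at 0. For Gapdh every SSC library lies at 275 CPM or above and every OPC library at 40.7 CPM or below.

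In lower glycolysis 3 of the 6 genes were called higher in SSCs in each genotype, and Gapdh had the smallest p of the 34 in each. Gapdh (glyceraldehyde-3-phosphate dehydrogenase, chromosome 6, 125161715 to 125166467, minus strand, mm10) was at 36.1, 30.9 and 33.5 CPM in OPC WT, 35, 28.8 and 34.5 CPM in OPC +/1013, and 38, 40.2 and 40.7 CPM in OPC 1013/1013. In SSCs it was at 293, 275 and 315 CPM in WT, 432, 547 and 377 CPM in +/1013, and 387 and 479 CPM in 1013/1013. No SSC library came near an OPC library. The log2 fold change of SSCs over OPCs was 3.12 (SE 0.18, adjusted p = 3.54e-07) in WT, 3.78 (SE 0.19, adjusted p = 3.3e-08) in +/1013 and 3.45 (SE 0.19, adjusted p = 1.03e-07) in 1013/1013.

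Pgk1, the next enzyme and the first to make ATP, lies on chromosome X (106187100 to 106203699, plus strand). Its level was 6.12 to 15.8 CPM over the 9 OPC libraries and 35.9 to 64.8 CPM over the 8 SSC libraries. Its log2 fold change was 1.97 (SE 0.29, adjusted p = 0.000767) in WT, 2.48 (SE 0.29, adjusted p = 9.87e-05) in +/1013 and 2.0 (SE 0.31, adjusted p = 0.000905) in 1013/1013. Pgam1, phosphoglycerate mutase (chromosome 19, 41911923 to 41918660, plus strand), lay at 3.29 to 8.17 CPM in OPCs and 25.2 to 38.1 CPM in SSCs. Its log2 fold changes were 2.38, 2.63 and 2.18 in the same order of genotypes (SE 0.3, 0.3 and 0.31, adjusted p = 0.000232, 7.62e-05 and 0.000602). Eno2, the neuronal enolase, was at 0 to 5.49 CPM in OPCs and 10.2 to 25.9 CPM in SSCs. Its groups did not overlap, but the OPC libraries spread widely. It was not called by edgeR at the settings above, with adjusted p = 0.161, 0.156 and 0.101. DESeq2 called Eno2 in each genotype (adjusted p = 0.0434, 0.0406 and 0.0175). So did edgeR's bias-adjusted quasi-likelihood test (adjusted p = 0.0383, 0.04 and 0.022). The other 2 genes of lower glycolysis overlapped between the cell types. Eno1, the common enolase, had medians of 337 CPM in OPCs and 405 CPM in SSCs, and Pkm, pyruvate kinase, 676 and 633 CPM.

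Reads of Gapdh, Pgk1 and Pgam1 can match other genes. Annotated pseudogenes sharing sequence numbered 213 for Gapdh, 5 for Pgk1 and 4 for Pgam1. Of the 50-base words of their annotated exons, 25.1%, 53.9% and 36.2% also occurred in another annotated gene, and Eno1, Pkm, Ldhb and Bnip3 had 26%, 25.8%, 21% and 47.2%. Reads with more than 1 alignment were left out by the counting, so the levels of these 7 genes are uncertain. The share of reads left out for this was 7.75% to 10.4% in OPCs and 5.1% to 8.56% in SSCs. The Gapdh pseudogenes together had 15.6 to 27.3 CPM in OPCs and 14 to 30.6 CPM in SSCs, those of Pgk1 0.15 to 0.405 and 0.0604 to 0.294 CPM, and those of Pgam1 0.0539 to 0.22 and 0.0823 to 0.257 CPM. These pseudogene values are scaled to library size only, without the TMM scaling of the gene levels. Protein-coding genes with at least 20% shared words were called higher in SSCs more often than those under 1%, in 11.5%, 15.9% and 16.3% against 5.96%, 6.05% and 6.65% of genes in WT, +/1013 and 1013/1013. Shared sequence thus moved with the difference between cell types, and its part in the Gapdh, Pgk1 and Pgam1 values was not tested. Without the 7 genes, 4 of 27 were called in WT, 4 in +/1013 and 6 in 1013/1013, beside 11.4%, 12.5% and 13.1% of all genes tested. Egln3 and Adm had 0% shared words and Pfkl 0.0298%.

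**Figure D3:**
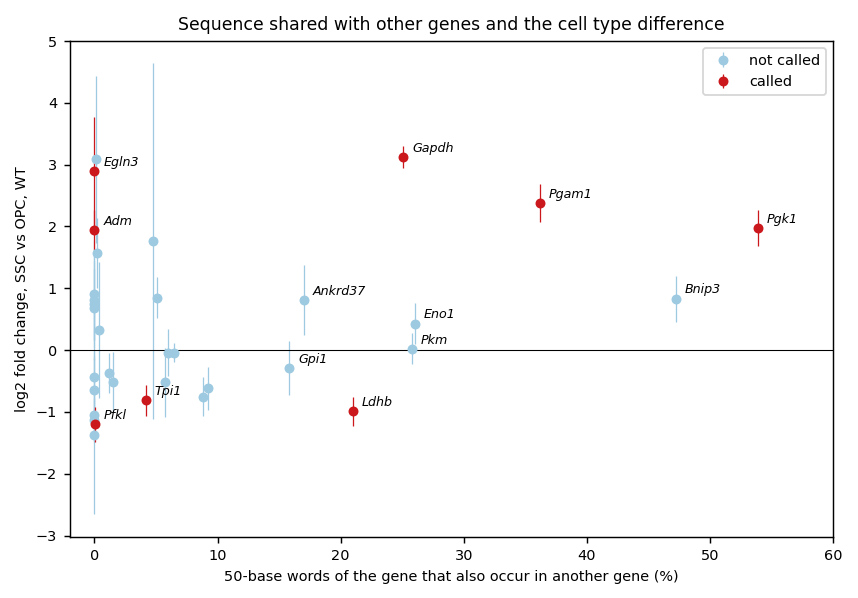
Share of a member's 50-base exon words found in another gene (horizontal axis, percent) against its log2 fold change of SSCs over OPCs in WT (vertical axis, with standard errors as bars and called genes in red). Gapdh, Pgk1 and Pgam1 combine a share of at least 20% with a high fold change, while Egln3 and Adm are high with 0% shared.

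Among HIF factors and hydroxylases, Egln3 was called in each genotype. It encodes the prolyl hydroxylase PHD3, itself a HIF target, and lies on chromosome 12 (54178981 to 54203860, minus strand). OPC libraries had 0.291 to 5.7 CPM. SSC libraries had 50.6, 25.9 and 33.1 CPM in WT, 25.9, 129 and 28.3 CPM in +/1013, and 11.6 and 70.6 CPM in 1013/1013. All SSC libraries were above all OPC libraries, with a wide spread within the mutant SSC groups. The log2 fold change was 2.89 (SE 0.88, adjusted p = 0.0491) in WT, 4.11 (SE 0.93, adjusted p = 0.0109) in +/1013 and 3.89 (SE 0.96, adjusted p = 0.0174) in 1013/1013. The WT call did not hold in 10 alternative settings, including each omission of 1 WT library (adjusted p up to 0.167). The 1013/1013 call was lost with only the groups compared in the fit (adjusted p = 0.161) and without SSC 1013/1013 replicate 2 (log2 2.12). Hif1a, Epas1 (HIF-2α) and Egln1 (PHD2, the main oxygen sensor) were called in no genotype, with medians of 184 and 81.5, 7.08 and 11.7, and 75.9 and 44.4 CPM in OPCs and SSCs.

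Of the other HIF targets, Adm (chromosome 7, 110627661 to 110629820, plus strand) was at 6.23 to 18.1 CPM in OPCs and 31.4 to 87.5 CPM in SSCs, without overlap. Its log2 fold change was 1.94 (SE 0.32, adjusted p = 0.00159) in WT, 2.55 (SE 0.32, adjusted p = 0.000177) in +/1013 and 2.56 (SE 0.34, adjusted p = 0.000322) in 1013/1013. Bnip3, which drives the removal of mitochondria, was at 9.28, 16.2 and 20.4 CPM in OPC +/1013 and 32, 60.9 and 30.7 CPM in SSC +/1013, where it was called (log2 1.42, SE 0.38, adjusted p = 0.0243). That call was lost without OPC +/1013 replicate 1 or 2 or SSC +/1013 replicate 2 (adjusted p = 0.0812, 0.0717 and 0.116). Vegfa, Ankrd37, Car9, Ndrg1 and Ddit4 were not called in any genotype. Vegfa, the main angiogenic factor, had medians of 40.6 CPM in OPCs and 39.5 CPM in SSCs, and the stress gene Ndrg1 184 and 229 CPM.

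In upper glycolysis the calls were for lower levels in SSCs. Pfkl, the liver-type subunit of phosphofructokinase, the committed step of the pathway (chromosome 10, 77986947 to 78010083, minus strand), lay at 88.9 to 251 CPM in OPCs and 41.1 to 74.4 CPM in SSCs. The groups did not overlap. Its log2 fold change was -1.2 (SE 0.28, adjusted p = 0.0127) in WT, -1.54 (SE 0.28, adjusted p = 0.0026) in +/1013 and -1.65 (SE 0.32, adjusted p = 0.00482) in 1013/1013. The WT call was lost without OPC WT replicate 2 or SSC WT replicate 2 (adjusted p = 0.0796 and 0.0565). The 1013/1013 call was lost with only the groups compared in the fit (adjusted p = 0.0571). Tpi1, triose phosphate isomerase, was at 289, 453 and 388 CPM in OPC WT and 217, 232 and 200 CPM in SSC WT. It was called in WT only just (log2 -0.81, SE 0.25, adjusted p = 0.0484), and 8 of 17 alternatives lost the call, among them those without OPC WT replicate 2 or 3 or any 1 of the SSC WT libraries (adjusted p = 0.0975 to 0.196). Hk1, the widespread hexokinase, was called in 1013/1013, at 207, 110 and 152 CPM in OPCs and 41.7 and 83.6 CPM in SSCs (log2 -1.32, SE 0.39, adjusted p = 0.038), and the call was lost without SSC 1013/1013 replicate 1 or OPC 1013/1013 replicate 1 or 3 (adjusted p = 0.317, 0.11 and 0.0769). Aldoc, the brain aldolase, was at 13.1, 10.7 and 15.6 CPM in OPC 1013/1013 and 0 and 0.0745 CPM in SSC 1013/1013, and was called (adjusted p = 0.0208). Without SSC 1013/1013 replicate 1 its adjusted p was 0.145. The other 7 genes of upper glycolysis were not called in any genotype, among them Aldoa with medians of 502 and 584 CPM and Gpi1 with 142 and 170 CPM.

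Of the branch enzymes, Ldhb and Pdk1 were called lower and Ldha was not called. Ldhb, the lactate dehydrogenase subunit that favours pyruvate formation (chromosome 6, 142490249 to 142507957, minus strand), was at 48.6, 35.5 and 39.8 CPM in OPC WT and 16.2, 20.5 and 26.1 CPM in SSC WT (log2 -0.99, SE 0.23, adjusted p = 0.0132). In +/1013 it was at 43.3, 45.3 and 31.8 CPM against 23.2, 16.4 and 15.5 CPM (log2 -1.13, SE 0.23, adjusted p = 0.00588). In 1013/1013 the OPC libraries had 23.7, 28.5 and 26.3 CPM and the SSC libraries 29.8 and 28.4 CPM, with a log2 fold change of 0.15 (SE 0.25, adjusted p = 0.721). The WT call was lost without SSC WT replicate 1 (adjusted p = 0.0631). Pdk1, which inhibits pyruvate dehydrogenase, was at 32 to 116 CPM in OPCs and 11 to 36.9 CPM in SSCs, and was called in +/1013 (log2 -1.72, SE 0.39, adjusted p = 0.0105) and in 1013/1013 (log2 -1.69, SE 0.45, adjusted p = 0.0245). These calls were lost without OPC +/1013 replicate 3 or SSC +/1013 replicate 1 (adjusted p = 0.056 and 0.0515), and without OPC 1013/1013 replicate 3 or either SSC 1013/1013 library (adjusted p = 0.0882, 0.179 and 0.0641). Ldha (chromosome 7, 46841475 to 46855627, plus strand) was at 630 to 1598 CPM in OPCs and 555 to 1195 CPM in SSCs.

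None of the 3 transporters was called by edgeR at the settings above. For Slc16a1 in WT this depended on the settings. It was called lower by edgeR with upper-quartile scaling (adjusted p = 0.0375) and with at least 10 counts in every library (adjusted p = 0.0248). DESeq2 called Slc16a1 lower in WT (adjusted p = 0.0098) and Slc16a3 lower in 1013/1013 (adjusted p = 0.0189). In OPC 1013/1013 Slc16a3 was at 51.3, 266 and 114 CPM, and the library at 266 CPM is the leukocyte-rich replicate 2. Slc2a1 had medians of 80.2 CPM in OPCs and 45.3 CPM in SSCs, the lactate carrier Slc16a1 (MCT1) 105 and 58.6 CPM, and the HIF-induced lactate exporter Slc16a3 (MCT4) 75.1 and 32.4 CPM. All 3 had negative log2 fold changes in each genotype, from -0.02 to -2.0, with adjusted p between 0.0532 and 1.0. With the 3 leukocyte-rich libraries left out, an alternative added after the values were seen, 6 genes were called in WT, 9 in +/1013 and 10 in 1013/1013, beside 5.34%, 13.5% and 11.5% of all genes tested.

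Isoform balance was described by the log2 ratio of 10 pairs of related genes in each library, tested by exact two-sided permutation over libraries with adjustment over 90 tests. No ratio passed (smallest adjusted p = 0.692). The exact permutation test of 3 with 3 libraries cannot go below p = 0.1, and that of 3 with 2 cannot go below p = 0.2. Of the 90 comparisons, 19 had groups that did not overlap, which by permutation alone occurs at these same rates of 0.1 and 0.2. Pfkp over Pfkl, the platelet-type against the liver-type phosphofructokinase, ran from -0.82 to 0.87 in OPCs and from 0.89 to 2.62 in SSCs. Egln3 over Egln1 ran from -8.09 to -3.22 in OPCs and from -1.88 to 2.17 in SSCs. These 2 ratios separated all OPC from all SSC libraries and the other 8 did not.

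Other genes of the pathways were counted in lists outside the 34. Of 39 further glycolysis and pyruvate genes tested, 1 was called higher and 3 lower in SSC WT, 2 and 7 in +/1013, and 3 and 5 in 1013/1013. Of all genes tested, 5.55% were called higher and 5.86% lower in WT, 6.44% and 6.02% in +/1013, and 6.94% and 6.12% in 1013/1013. The median log2 fold changes of the list were -0.47, -0.73 and -0.96, beside 0.17, 0 and -0.2 over all genes. Pdp1, the phosphatase that activates pyruvate dehydrogenase, was higher in SSCs at 40.7 to 80.8 CPM against 13.8 to 28.3 CPM over the groups (WT log2 0.88, SE 0.26, adjusted p = 0.0401). Pdk4, a kinase of the same complex, was lower at 16.3 to 27.5 against 43.4 to 120 CPM (WT log2 -2.08, SE 0.29, adjusted p = 0.000613). The mitochondrial pyruvate carrier gene Mpc1 was called higher in +/1013 (log2 0.83, adjusted p = 0.0231), at 24 to 31.1 CPM in SSCs and 13.7 to 16.6 CPM in OPCs, and Mpc2 in 1013/1013 (log2 0.93, adjusted p = 0.0388). Both carriers were higher in SSCs without overlap in each mutant genotype and overlapped in WT. The fructose transporter Slc2a5 and the gluconeogenic Fbp1 were at 0 in every mutant SSC library, while OPC libraries of the mutants had 6.58 to 32.4 and 0.836 to 11.3 CPM.

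Of 54 further HIF pathway genes tested, 5 were called higher and 6 lower in WT, 11 and 9 in +/1013, and 11 and 11 in 1013/1013. The shares of all genes were again 5.55% and 5.86%, 6.44% and 6.02%, and 6.94% and 6.12%. The medians of the list were 0.27, 0.03 and -0.07, beside 0.17, 0 and -0.2 over all genes. Igfbp3, which binds insulin-like growth factors, was higher in SSCs in each genotype, at 44.8 to 292 CPM against 1.3 to 17.1 CPM (WT log2 3.38, SE 0.56, adjusted p = 0.00177). Rbpj, the Notch effector, was higher in WT (log2 2.2, SE 0.31, adjusted p = 0.000638) and Cxcl12, the ligand of CXCR4, in +/1013, at 826 to 1637 against 30 to 315 CPM (log2 2.94, SE 0.78, adjusted p = 0.0248). Edn1, endothelin 1, was at 0 in OPC 1013/1013 and 0.73 to 1.19 CPM in SSC 1013/1013. Car12, a carbonic anhydrase, was lower in each genotype, at 0.0512 to 18.1 CPM in SSCs and 80.4 to 627 CPM in OPCs (WT log2 -4.03, SE 1.1, adjusted p = 0.0298). Stc2, stanniocalcin 2, was lower in WT (log2 -2.42, SE 0.61, adjusted p = 0.0204), Cxcr4 in +/1013 (log2 -5.44, SE 1.47, adjusted p = 0.0267) and Rcor2 in 1013/1013 (log2 -5.82, SE 1.3, adjusted p = 0.0105). A gene is named for the genotype where its change was among the largest, which does not limit the difference to that genotype. Rbpj, Cxcl12, Stc2 and Rcor2 did not overlap between SSCs and OPCs in any genotype. Rbpj lay at 27.7 to 41.7 CPM in SSCs and 5.82 to 12.1 CPM in OPCs over the groups. None of the genes of both lists was called between genotypes.

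Within OPCs the comparisons asked what the mutant receptor changes. None of the 34 genes was called in any of the 3 genotype comparisons, and hardly any other gene was. The share of all 16207 genes tested that was called was 0% for +/1013 against WT, 0.00617% for 1013/1013 against WT and 0% for 1013/1013 against +/1013. At an unadjusted p under 0.05 there were 331, 548 and 513 genes, among them 0, 2 and 1 of the 34. DESeq2 called 58, 42 and 59 genes and none of the 34. A p that misses the threshold does not show that the levels were equal, here or in the genotype comparisons of SSCs.

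OPC 1013/1013 libraries had a higher fitted level than WT for 28 of the 34 genes, with a median log2 fold change of 0.37 beside 0.01 over all genes. All 11 genes of upper glycolysis were on the higher side, from 0.01 for Hk1 to 1.31 for Aldoc. Above WT without overlap lay 7 genes (Slc2a1, Aldoc, Gapdh, Pgam1, Eno1, Pkm and Vegfa), as did 3.99% of all genes, and Ldhb lay below without overlap, where 3.7% did. Slc2a1 was at 69.4, 80.2 and 52.3 CPM in WT and 93.6, 89.9 and 129 CPM in 1013/1013, a log2 difference of 0.63 (SE 0.27, unadjusted p = 0.0444, adjusted p = 1.0 by edgeR). Ldhb was at 48.6, 35.5 and 39.8 against 23.7, 28.5 and 26.3 CPM (log2 -0.66, SE 0.2, unadjusted p = 0.00957, adjusted p = 1.0 by edgeR). Aldoc was at 7.13, 4.85 and 3.95 against 13.1, 10.7 and 15.6 CPM (log2 1.31, SE 0.6, unadjusted p = 0.0591, adjusted p = 1.0 by edgeR). The ratio of Ldhb to Ldha on the log2 scale was -4.5 ± 0.59 in WT and -5.66 ± 0.4 in 1013/1013 (SD, n = 3 each, exact permutation p = 0.1). Gpi1, at 386 and 416 CPM in the OPC libraries rich in leukocyte markers and 109 to 163 CPM in the other OPC libraries, moved with those markers. Pfkfb4 and Slc16a3 were also highest in those leukocyte-rich OPC libraries, at 19.1 and 31.7 and at 118 and 266 CPM. The other OPC libraries had 3.98 to 13.9 and 23 to 114 CPM. Without the 3 leukocyte-rich libraries no gene was called, and 24 genes were higher and 9 lower with a median of 0.46.

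**Figure D4:**
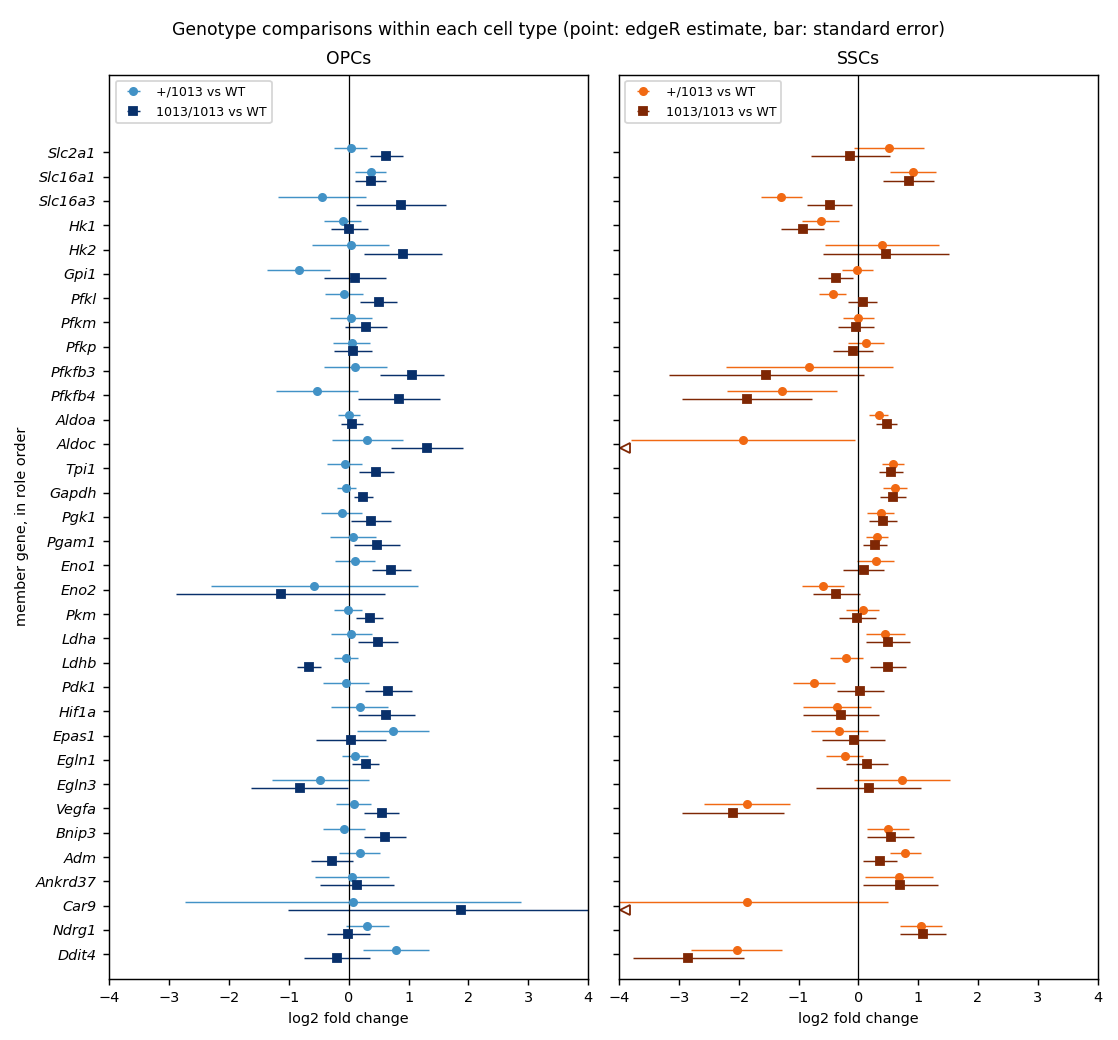
Log2 fold changes of the 34 genes between genotypes (horizontal axis) by gene (vertical axis), with standard errors as bars, in OPCs and in SSCs; both mutant groups are set against WT, and open triangles mark estimates beyond the axis. In OPC 1013/1013 against WT 28 of 34 points lie above 0, and no point in any comparison was called.

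OPC +/1013 differed less from WT, with 20 genes on the higher side, 14 on the lower and a median of 0.03. Gpi1 (log2 -0.84, SE 0.52), Ddit4 (log2 0.79, SE 0.55) and Slc16a1 (log2 0.37, SE 0.26) had the smallest p by edgeR, each with adjusted p = 1.0. The Gpi1 value rests on WT replicate 3, at 386 CPM against 148 and 132 CPM in the other WT libraries and 109 to 142 CPM in +/1013. For 1013/1013 against +/1013, 26 genes were higher and 8 lower with a median of 0.42, led by Ldhb (log2 -0.61, SE 0.2), Slc2a1 (log2 0.59, SE 0.27) and Pfkfb4 (log2 1.38, SE 0.69), each with adjusted p = 0.999 by edgeR. Pfkfb4 was at 31.7 CPM in the leukocyte-rich OPC 1013/1013 replicate 2, against 7.94 and 13.9 CPM in replicates 1 and 3. These comparisons share libraries with each other.

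Ldha differed among the OPC libraries within each genotype. It was at 699, 1140 and 1007 CPM in WT, 630, 981 and 1336 CPM in +/1013, and 1371, 1042 and 1598 CPM in 1013/1013. Of 33 other members, 14 correlated positively with Ldha over the 9 OPC libraries and 4 negatively at an unadjusted p under 0.05 (exact permutation of Pearson's r of log2 CPM), where 6.87% and 6.93% of all 16206 other genes tested did. Adjusted over all of these genes, 2 members (Tpi1 and Pgam1) and 0.105% of all genes passed with a positive r, and only Tpi1 of the members passed by Spearman's rho. Tpi1 had r = 0.974 (adjusted p = 0.0447, rho 1.0 with adjusted p = 0.0447 by permutation) and r = 0.947 without OPC +/1013 replicate 1 and OPC 1013/1013 replicate 3, the 2 libraries farthest from the median of Ldha. Pgam1 had r = 0.973 (adjusted p = 0.0447, rho 0.967 with adjusted p = 0.122 by permutation) and 0.979 without these. Hif1a had r = 0.902 (adjusted p = 0.073, rho 0.917 with adjusted p = 0.188 by permutation) and 0.815 without these. Ldhb had r = -0.818 (adjusted p = 0.187, rho -0.883 with adjusted p = 0.222 by permutation) and -0.807 without these. With the genotype means removed, r was 0.974 for Tpi1, 0.961 for Pgam1, 0.877 for Hif1a and -0.786 for Ldhb. A genotype holds too few libraries for a value of its own.

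Cartilage genes moved with Ldha in the OPC libraries. The chondrocyte marker sum was 51280, 62391 and 24608 CPM in WT, 21416, 48820 and 85987 CPM in +/1013, and 122665, 42108 and 101809 CPM in 1013/1013. Its correlation with Ldha was r = 0.783 (n = 9, exact permutation p = 0.0133, adjusted p = 0.0797 over 12 relations) with rho = 0.833 (adjusted p = 0.0496 by exact permutation), and r fell to 0.613 without OPC +/1013 replicate 1 and OPC 1013/1013 replicate 1. The mean of the 34 genes had r = 0.569 (exact permutation p = 0.11, n = 9). The part of cartilage RNA in the values of the 34 genes was not tested.

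**Figure D5:**
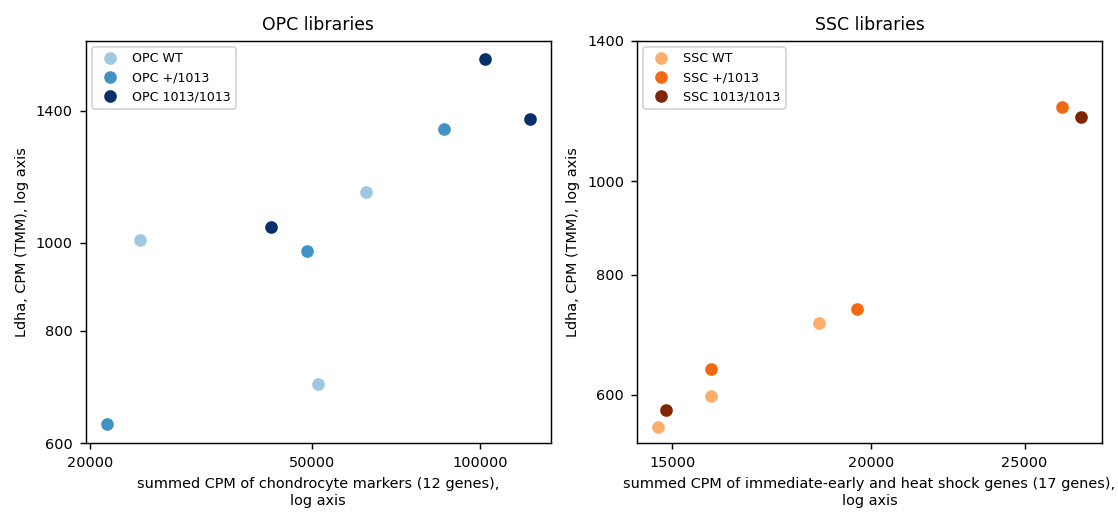
Ldha level against the summed level of chondrocyte markers in OPCs and of immediate-early and heat shock genes in SSCs (both axes CPM on log scales, 1 point per library, coloured by genotype). Pearson's r was 0.783 in OPCs and 0.991 in SSCs.

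Within SSCs none of the 34 genes was called either. Of all 17659 genes tested, 0.0736% were called for +/1013 against WT, 0% for 1013/1013 against WT and 0% for 1013/1013 against +/1013. At an unadjusted p under 0.05 there were 3061, 3224 and 977 genes, with 8, 7 and 1 of the 34 among them. DESeq2 called 1302, 1708 and 169 genes (7.37%, 9.67% and 0.957% of those tested), with 2, 2 and 0 of the 34. The number of genes detected, the share of reads outside genes (3.68% to 4.15% in WT, 1.5% to 2.69% in the mutants) and genotype separated the same libraries and cannot be told apart.

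In SSC +/1013 against WT, 7 genes lay above WT without overlap, where 14.7% of all genes did, and 2 below, where 16.5% did. The median of the 34 genes was 0.04, beside -0.11 over all genes. Slc16a3 was at 57.1, 36.8 and 57.8 CPM in WT and 13.1, 27.9 and 21.4 CPM in +/1013 (log2 -1.29, SE 0.34, unadjusted p = 0.00601, adjusted p = 0.159 by edgeR, 0.00977 by DESeq2). Tpi1 was at 217, 232 and 200 against 303, 384 and 285 CPM (log2 0.58, SE 0.18, unadjusted p = 0.0131, adjusted p = 0.19 by edgeR). Gapdh, with the levels given above, had a log2 difference of 0.61 (SE 0.2, unadjusted p = 0.0162, adjusted p = 0.2 by edgeR). The log2 ratio of Slc16a3 to Slc16a1 was 0.3 ± 0.18 in WT and -1.94 ± 0.38 in +/1013 (SD, n = 3 each, exact permutation p = 0.1).

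In SSC 1013/1013 against WT, 6 genes lay above WT without overlap, where 15.9% of all genes did, and 7 below, where 24.7% did. The median was 0.05, beside -0.23 over all genes. Ddit4, an inhibitor of mTORC1, was at 3.56, 3.54 and 9.21 CPM in WT, 1.47, 1.3 and 1.26 CPM in +/1013, and 0.292 and 1.23 CPM in 1013/1013. Both mutant groups lay below WT, and the change in 1013/1013 was -2.84 on the log2 scale (SE 0.93, unadjusted p = 0.0164, adjusted p = 0.19 by edgeR, 0.00836 by DESeq2). Ndrg1 was at 175, 163 and 153 against 201 and 482 CPM (log2 1.08, SE 0.38, unadjusted p = 0.0231, adjusted p = 0.213 by edgeR), and Tpi1 had a log2 difference of 0.55 (SE 0.2, unadjusted p = 0.024, adjusted p = 0.215 by edgeR). The 2 libraries of SSC 1013/1013 differed from each other, with Slc2a1 at 15.2 and 71.1, Hif1a at 21.3 and 130 and Pfkfb3, an activator of phosphofructokinase, at 0.0183 (1 count) and 15.6 CPM. The lower values are those of replicate 1, in which 15748 genes were detected, the fewest of all 17 libraries, against 19222 in replicate 2. The part of this in the values was not tested. For 1013/1013 against +/1013 the smallest p belonged to Ldhb (log2 0.7, SE 0.3), Slc16a3 (log2 0.82, SE 0.37) and Pfkl (log2 0.5, SE 0.24), each with adjusted p = 0.788 by edgeR.

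In SSCs Ldha correlated with the summed level of a list of stress genes. It was at 599, 555 and 713 CPM in WT, 736, 1195 and 639 CPM in +/1013, and 579 and 1166 CPM in 1013/1013. Of the other 33 members, 12 correlated positively and 0 negatively with Ldha at an unadjusted p under 0.05 by exact permutation of r over the 8 libraries, where 4.76% and 4.42% of all 17658 other genes tested did, and by rho 9 and 0 did (5.11% and 4.88%). None of the members and no other gene passed the adjustment over all genes. With 8 libraries the exact p has a floor, at which 1 gene alone could not pass an adjustment over 17658 genes. Those with the smallest p were Pgk1 (r = 0.935, adjusted p = 0.196, rho 0.929, adjusted p = 0.237 by exact permutation) and Slc16a1 (r = 0.924, adjusted p = 0.177, rho 0.952, adjusted p = 0.237 by exact permutation). Without SSC +/1013 replicate 2 and SSC 1013/1013 replicate 2, r was 0.71 and 0.839. The summed level of 17 immediate-early and heat shock genes, which are known to respond to tissue digestion and sorting, was 15869, 14692 and 18567 CPM in WT, 19617, 26411 and 15879 CPM in +/1013, and 14867 and 27140 CPM in 1013/1013. Its correlation with Ldha was r = 0.991 (n = 8, exact permutation p = 0.000124, adjusted p = 0.00149 over 12 relations) with rho = 0.976 (adjusted p = 0.00476 by exact permutation), and r = 0.975 without the same 2 libraries. In OPCs the same relation had r = -0.0593 (n = 9, exact permutation p = 0.878). Fos alone was at 4794 to 10619 CPM in the SSC libraries and was the largest part of the sum. Not every gene of the list moved with Ldha. SSC +/1013 replicate 2 and SSC 1013/1013 replicate 2 had the most Ldha. Atf3 was highest in these 2, at 2683 and 2402 CPM. Hspa1b was at 148 and 158 CPM there and at 292 CPM in SSC WT replicate 1.

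The last comparison asked whether the genotype difference itself differed between SSCs and OPCs. Of the 20238 genes tested, 0.084% were called for the +/1013 effect and 0.153% for the 1013/1013 effect, and none of the 34 was among them. An unadjusted p under 0.05 was reached by 2153 and 3037 genes, 3 and 4 of the 34 among them, and DESeq2 called 437 and 1142 genes (2.16% and 5.64%), 1 and 3 of the 34 among them. For +/1013 the smallest p belonged to Ddit4 (log2 difference of SSC minus OPC effect -2.8, SE 0.91, unadjusted p = 0.00856, adjusted p = 0.367 by edgeR), followed by Gapdh (0.66) and Vegfa (-1.91). For 1013/1013 it belonged to Ldhb (1.15, SE 0.34, unadjusted p = 0.00467, adjusted p = 0.184 by edgeR), Aldoc (-7.02, SE 2.26, unadjusted p = 0.00794, adjusted p = 0.204 by edgeR) and Vegfa (-2.63, SE 0.87, unadjusted p = 0.00913, adjusted p = 0.216 by edgeR). Vegfa was at 40.3, 40.6 and 39.8 CPM in OPC WT and 64.5, 47.5 and 64.8 CPM in OPC 1013/1013, and at 48.6, 43.6 and 271 CPM in SSC WT and 24.2 and 32.6 CPM in SSC 1013/1013. The library at 271 CPM is the leukocyte-rich SSC WT replicate 3.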

How the data were processed

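RNA was read from pools of sorted cells with a full-length cDNA kit (SMART-Seq v4, 12 PCR cycles) and Nextera XT paired-end libraries. Per the methods, the authors removed reads shorter than 50 bases, used STAR for alignment to mm10, and obtained gene counts from HTSeq. The deposited values are raw counts per gene. The annotation release, the strand setting and tool versions are not given in the sources used here. Without the strand setting, overlapping and antisense genes cannot be told apart. Lines for reads without a gene (1.15% to 4.15% of reads with no feature) were left out of library sizes.

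Gene IDs were matched without version numbers to GENCODE M21 (55154 of 55335, 181 unmatched). Counts were fitted with edgeR 4.0.16 (R 4.3.3), with its default low-count filter, TMM scaling and the quasi-likelihood test, in 1 fit per cell type for genotype and in 1 fit of 17 libraries for cell type and interactions. Levels are TMM-scaled CPM over all libraries, and 3 counts are taken as the floor. The CPM given for 3 counts and for pseudogenes is not TMM-scaled. Standard errors are the log2 fold change over the square root of F. Exact permutation tests used SciPy 1.17.1. The fits were tested on simulated data. Groups came from the sample labels. Replicates are separate pools of animals. Samples with the same replicate number were checked for shared deviations, and not every pair correlated above 0.1, so they were not taken as paired. PCR copies carry no molecular identifiers, so floors cover counting error only.

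All 34 genes are described by role, with full statistics for those called and, where fewer than 3 were called, for the 3 with the smallest unadjusted p. From the 2 further pathway lists, the 2 called genes with the largest change in each direction are named. The members and lists were chosen with earlier results of these data known. DESeq2 1.42.0, edgeR's bias-adjusted quasi-likelihood test, other scalings, filters, fold thresholds, depth thinning, sample sets, a replicate block and each omission of 1 library were tried as alternatives. Leaving out the leukocyte-rich libraries and the genes with shared sequence was added after seeing the data. Summed marker levels not given elsewhere, in OPCs and SSCs, were 39.7 to 3565 and 128 to 945 CPM for erythroid, 3.68 to 89.2 and 23.6 to 175 for endothelial, 159 to 796 and 5.85 to 183 for muscle, 190 to 877 and 164 to 664 for mural, 102 to 504 and 566 to 2287 for adipocyte and marrow reticular, and 176367 to 550241 and 9282 to 23585 for osteoblast genes.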

Additional observations from a re-analysis of the deposited data

Results flagged for a closer look

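A group of 3 genes, Aldoc, Ldhb and Vegfa, lay on opposite sides of WT in OPCs and SSCs in the 1013/1013 comparison with WT, with groups that did not overlap in either cell type, as did 2.06% of the 15217 genes tested in both. Each difference between the effects was tested as an interaction in the fit of all libraries. None passed the adjustment over all genes with edgeR. For Aldoc the log2 effect in SSCs minus that in OPCs was -7.02 (SE 2.26, adjusted p = 0.204). All 3 OPC 1013/1013 libraries (10.7 to 15.6 CPM) lay above WT (3.95 to 7.13 CPM) and both SSC 1013/1013 libraries (0 and 0.0745 CPM) lay below WT (0.212 to 4.78 CPM), and the fitted value depends on the counts near 0. For Ldhb the difference was 1.15 (SE 0.34, adjusted p = 0.184), with OPCs at 23.7 to 28.5 CPM against 35.5 to 48.6 CPM in WT, and SSCs at 28.4 and 29.8 CPM against 16.2 to 26.1 CPM. For Vegfa it was -2.63 (SE 0.87, adjusted p = 0.216), with SSC WT replicate 3 at 271 CPM, which is also the SSC library with the highest leukocyte marker sum (7658 CPM). DESeq2 gave adjusted p = 0.00697, 0.0297 and 0.0374 for the same 3 differences.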

How the results depend on the processing

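The number of the 34 genes called between SSCs and OPCs was 8, 9 and 9 in WT, +/1013 and 1013/1013, beside 11.4%, 12.5% and 13.1% of all genes tested. With DESeq2 it was 12, 16 and 14 (18.9%, 21.2% and 23.6% of all genes). DESeq2 added Slc16a1, Eno2, Pdk1 and Vegfa in WT, and Hk1, Pfkp, Aldoc, Eno2, Egln1, Ankrd37 and Ddit4 in +/1013. In 1013/1013 it added Slc16a3, Pfkm, Tpi1, Eno2 and Ddit4. With edgeR's bias-adjusted quasi-likelihood test the number was 10, 13 and 10, where 3291, 3494 and 3598 of all 20238 genes were called. With only the groups compared in the fit the number was 5 in 1013/1013 (3.14%), all of them higher in SSCs. Hk1, Pfkl, Aldoc, Pdk1 and Egln3 lost their 1013/1013 calls in that fit (adjusted p = 0.0569 to 0.161 by edgeR). Without the 7 genes of shared sequence the number called was 4, 4 and 6 of 27, beside the same 11.4%, 12.5% and 13.1% of all genes. Leaving out 1 library gave 5 to 8 (5 without OPC WT replicate 2 or SSC WT replicate 1, with 6.68% and 7.05% of all genes), 8 to 10 and 6 to 13 (13 without SSC 1013/1013 replicate 2, with 4036 of all 22459 genes). Between genotypes 0 genes were called. DESeq2 called 2 in SSC +/1013 against WT (Slc16a3 and Ddit4), 2 in SSC 1013/1013 against WT (Vegfa and Ddit4), and 1 and 3 in the interactions of +/1013 and 1013/1013, beside 7.37%, 9.67%, 2.16% and 5.64% of all genes. Leaving out 1 library gave 0 to 4 in SSC 1013/1013 against WT, 0 to 1 in SSC 1013/1013 against +/1013 and 0 to 2 in the 1013/1013 interaction, each highest without SSC 1013/1013 replicate 2, where 14.8%, 9.17% and 8.73% of all genes were called and 1 library is assumed to vary like the other groups. The count of 19 isoform ratios without overlap ran from 19 to 37, the highest again without that library. By design, a group of 1 library separates from another group more readily than a larger one. The causes were not tested. With a replicate block the counts were 8, 9 and 8, and 0 between genotypes. Same-numbered libraries were taken to share only a number, since not every pair's deviations correlated above 0.1 (0.0818 to 0.274 for OPC WT with SSC WT, 0.0893 to 0.123 for OPC +/1013 with OPC 1013/1013, -0.208 to 0.242 for OPC WT with OPC 1013/1013). Differently numbered libraries of the same groups had -0.237 to 0.131, -0.138 to 0.0297 and -0.278 to 0.327. Whether some same-numbered libraries shared a preparation was not tested. Upper-quartile scaling moved the median over all genes of the 1013/1013 interaction by 0.13. Gapdh, Pgk1, Pgam1 and Adm kept their calls in every alternative run, and no gene named with full statistics changed sign. Depth limits only the lowest genes, such as Car9 and Aldoc in SSCs.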
